A study of Mus musculus with 48 samples.

Results

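The striatum was compared between mice that carry a heterozygous deletion of the 7qF3 stretch of chromosome 7 and wild-type mice. The samples were the striatal ones of a series that also profiled cortex and cerebellum, and they make up 16 of its 48 RNA-seq libraries. The deletion group held 8 libraries from animals D801 to D804 (males) and D809 to D812 (females). The wild-type group held 8 libraries from W805 to W808 (males) and W813 to W816 (females). Both groups share the mixed strain background C57BL/6N:129Sv, and no treatment is given for either. In place of an age the labels give a calendar date, which is 1 value for all males and another for all females, so an effect of that date and one of sex cannot be told apart. Each library is 1 animal, and the same animals gave the cortical and cerebellar libraries. The sources used here give neither the exact ends of the deletion nor litters. Genes were assigned to the deletion by position, from Slx1b to Sept1 on chromosome 7, 126689468 to 127233130 (GRCm38). This stretch of 544 kb holds 55 of the 47069 genes in the count table, of which 36 are coding. Of these 55 genes, 6 lie at the edges (Slx1b, Bola2, Cd2bp2, Tbc1d10b, Mylpf and Sept1) and 49 lie between them.

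In people, loss or gain of the syntenic stretch at 16p11.2 recurs and has been linked to autism, intellectual disability and altered body weight. It carries genes of kinase signalling, chromatin, glycolysis, lipid synthesis and synaptic release side by side, and a carrier of the deletion has a single copy of each. The striatum is the input station of the basal ganglia, which guide action selection and habit. Its principal cells are medium spiny neurons, which carry D1 or D2 dopamine receptors and project along the direct or the indirect pathway. The study asked how expression in this tissue differs with the loss of a copy of the stretch.

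Total gene counts per library were 29244745 to 60751792 in deletion striatum and 29921314 to 34013207 in wild-type striatum, and the highest was that of D812. Between 22991 and 25542 genes had at least 1 count. Total counts, genes detected, spike-in share and mitochondrial share did not differ past the threshold between genotypes (2-sided exact permutation test, 4 measures, adjusted p = 0.131 to 0.732). The mitochondrial share of gene counts was nearest to it, at 4.32% ± 0.85 in deletion and 3.30% ± 0.91 in wild type (SD, n = 8; exact permutation test, adjusted p = 0.131).

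The libraries differed widely in how striatal they were. Ppp1r1b, which encodes the medium spiny neuron phosphoprotein DARPP-32, spanned 66.1 to 1956 CPM (read counts scaled to the library's total) in deletion, with a median of 324, and 31.8 to 1020 CPM in wild type, with a median of 193. The mean log2 CPM of 3 defining thalamic markers (Tcf7l2, Prkcd, Slc17a6) was above that of 6 defining striatal markers in 5 libraries, those of D803, D810, W805, W813 and W815. Over the whole lists of 14 thalamic and 26 medium spiny neuron genes, D810 alone had this order. The order can come from low striatal markers as well as from high thalamic ones. W813 had the lowest striatal marker mean of all striatal libraries (3.97) and also the lowest thalamic list mean (4.56). Its hippocampal list mean was the highest, at 5.71, with the next at 4.42 in W814. In W805 the striatal marker mean was 4.28 and the thalamic one 5.62. Ttr, the choroid plexus thyroid hormone carrier, reached 1753 CPM in W813 and 4577 CPM in W816, against 2.12 to 54.3 CPM in the other 14. The cortical pyramidal marker Slc17a7, a vesicular glutamate transporter, was 2.12 to 490 CPM in deletion (median 27.7) and 6.12 to 880 CPM in wild type (median 98.3). Haemoglobin message Hbb-bs was highest in D804, at 188 CPM. Fits without some of these libraries, or with marker levels as covariates, stand beside the calls and list medians that they moved most. The covariates were the mean levels of the thalamic, cortical pyramidal and choroid plexus lists.

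**Figure D1:**
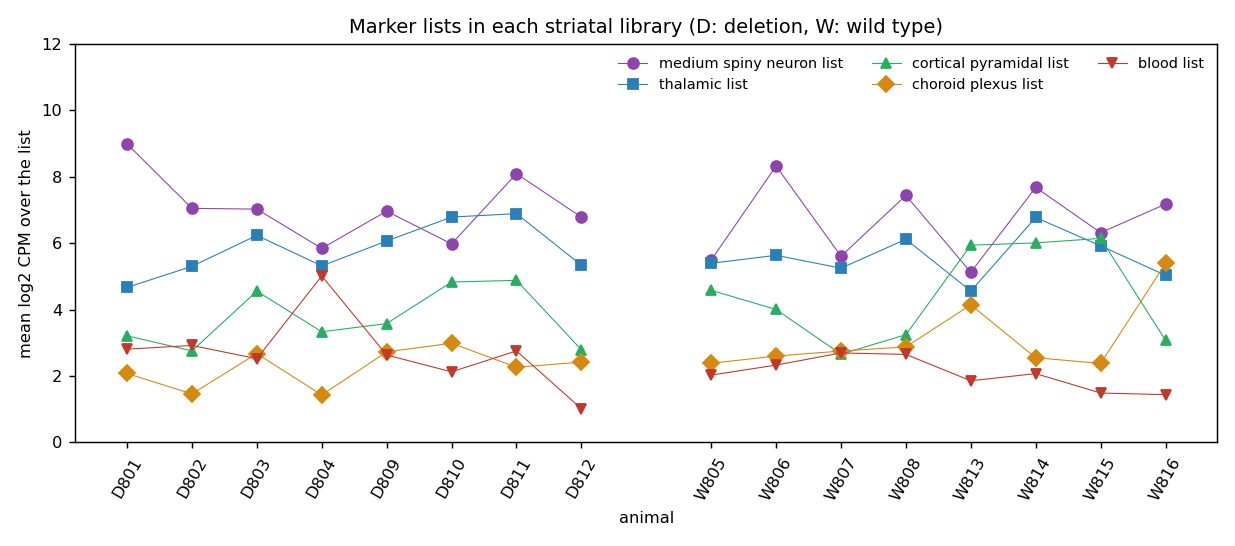
Mean log2 CPM over 5 marker lists (vertical axis) in each striatal library (horizontal axis), with the 8 deletion animals on the left and the 8 wild-type animals on the right. The medium spiny neuron list ran from 5.84 to 8.99 in deletion and from 5.12 to 8.32 in wild type, and the choroid plexus list stood above 3 in W813 and W816.

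Of the 34 genes of the stretch with enough counts to be tested, 20 were lower in deletion striatum past the threshold (edgeR's quasi-likelihood test with Benjamini-Hochberg adjustment over all 17198 genes tested, adjusted p under 0.05). Of these 20, 17 lie between the edge genes and 3 are edge genes. Among all genes tested, 0.116% were called lower, and every one of those lies in the stretch. The log2 fold change, deletion over wild type, was negative for all 34 tested genes. Its median over the 28 tested genes between the edges was -1.04, with a range of -1.59 to -0.89, against a median of -0.01 over all genes tested. Loss of 1 copy of 2 alone gives a log2 value of -1, and the 95% confidence interval held -1 for 32 of the 34. The exceptions were Gm9967, whose interval lay below -1, and Sept1, whose interval lay above it. Gm9967 had few counts, 119 in deletion and 319 in wild type over all striatal libraries. Its log2 fold change was -1.18 in males and -2.00 in females. In a fit of all 48 libraries it was -0.99 in cortex and -1.37 in cerebellum. The 95% confidence interval held 0 for 3 of the 34 genes, Sept1, Gdpd3 and Gm44735. The wide intervals of Gdpd3 and Gm44735 held both 0 and -1. In 16 of the 34 genes, every deletion library was below every wild-type library, which held for 0.093% of all genes tested. The median over the 34 genes of the level as a percentage of the wild-type mean spanned 38.8 to 58.6% across deletion libraries, against 73.1 to 123% across wild-type ones. The genotypes did not overlap by this measure, in which W807, W808 and W813 were high, at 120 to 123%, and D812 was low, at 38.8%. The number called depended on which libraries were used. It was 12 between the edges without D810 and 12 without the choroid-rich W813 and W816. It was 7 without the 5 libraries of thalamic above striatal markers. With marker levels as covariates it was 1, Taok2, while the median log2 fold change stayed between -1.07 and -0.91 in all 13 alternatives other than leaving out single animals.

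**Figure D2:**
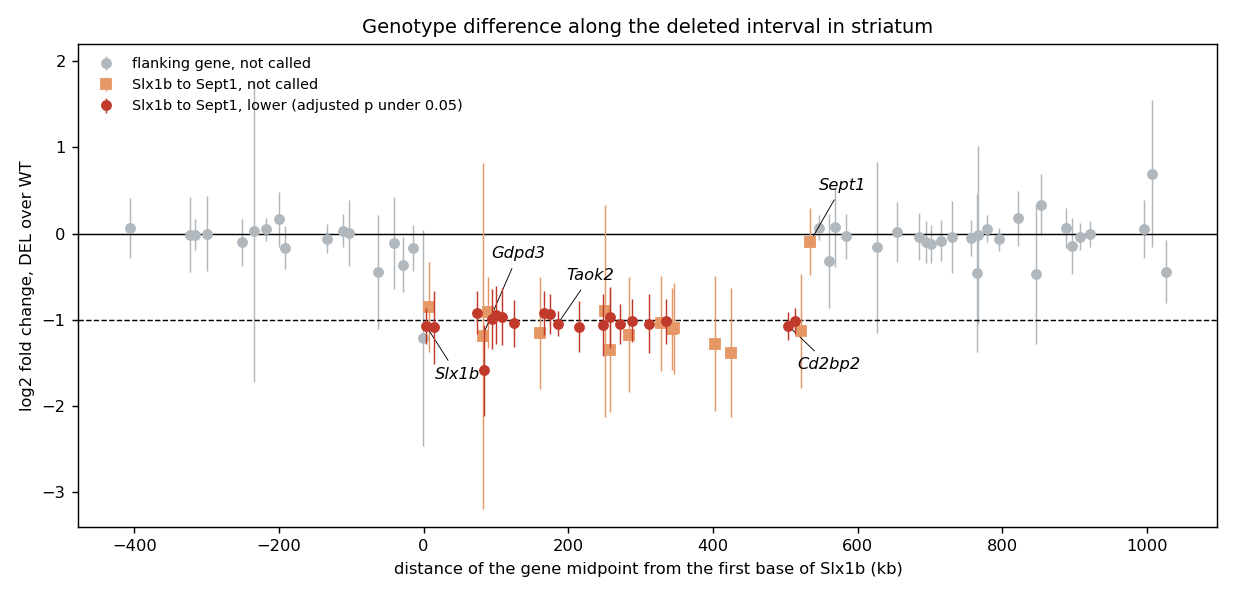
Log2 fold change with its 95% confidence interval (vertical axis, deletion over wild type, n = 8 each) for each tested gene, by distance of its midpoint from the first base of Slx1b (horizontal axis, kb). The genes of the stretch lie around the dashed line at -1, except Sept1 at -0.09. The flanking genes mostly lie around 0, and Gm6939, which overlaps Slx1b, lies at -1.21.

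For 4 genes with different behaviour in this stretch the promoter windows are shown: Taok2, the least variable gene, Kctd13 and the edge gene Cd2bp2, both lower in deletion, and Gdpd3, which split by animal in both genotypes. Each runs from 250 bases before to 50 bases after the start in RefSeq (GRCm38.p6), 5′ to 3′ on the gene's strand. Capitals mark matches on either strand to the GC box, spelled GGGCGG, to the half-site of the cyclic AMP response element, spelled TGACG, to the M-box, spelled CATGTG, or to the TATA box, spelled TATAAA.
Taok2, chr7:126884918-126885217, minus strand: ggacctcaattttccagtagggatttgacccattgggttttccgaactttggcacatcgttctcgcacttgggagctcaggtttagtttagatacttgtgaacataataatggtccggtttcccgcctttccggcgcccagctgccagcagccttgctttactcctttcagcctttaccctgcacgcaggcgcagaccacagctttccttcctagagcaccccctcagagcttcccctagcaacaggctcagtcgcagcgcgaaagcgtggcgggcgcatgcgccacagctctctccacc
Kctd13, chr7:126928629-126928928, plus strand: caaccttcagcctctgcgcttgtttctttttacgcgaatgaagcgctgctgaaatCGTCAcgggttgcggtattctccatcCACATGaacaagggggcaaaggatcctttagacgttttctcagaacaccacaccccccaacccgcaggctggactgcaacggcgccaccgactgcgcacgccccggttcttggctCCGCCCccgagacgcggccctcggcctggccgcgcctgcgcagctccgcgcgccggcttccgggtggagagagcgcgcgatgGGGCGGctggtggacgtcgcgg
Cd2bp2, chr7:127196028-127196327, minus strand: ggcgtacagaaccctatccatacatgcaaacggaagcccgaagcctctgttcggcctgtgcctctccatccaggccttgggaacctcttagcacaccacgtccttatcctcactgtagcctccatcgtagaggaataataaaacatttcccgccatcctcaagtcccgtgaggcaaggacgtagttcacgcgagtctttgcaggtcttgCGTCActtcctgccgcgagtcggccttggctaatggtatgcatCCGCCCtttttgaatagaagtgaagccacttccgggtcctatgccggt
Gdpd3, chr7:126766164-126766463, plus strand: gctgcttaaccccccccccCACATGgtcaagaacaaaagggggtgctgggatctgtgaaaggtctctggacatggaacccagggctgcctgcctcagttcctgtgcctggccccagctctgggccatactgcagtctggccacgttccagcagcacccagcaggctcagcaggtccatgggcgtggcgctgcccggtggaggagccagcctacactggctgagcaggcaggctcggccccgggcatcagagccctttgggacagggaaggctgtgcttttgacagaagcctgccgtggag
Taok2 held none of the 4 motifs, Kctd13 held 2 GC boxes, 1 half-site and 1 M-box, Cd2bp2 held 1 GC box and 1 half-site, and Gdpd3 held 1 M-box. Of the 34 tested genes, 22 were matched to a window, 12 of them with a GC box, 7 with the half-site, 2 with the M-box and 2 with the TATA box. Over the windows of 27025 genes the GC box was present in 36.0%, the half-site in 21.04%, the M-box in 14.1% and the TATA box in 14.2%. The 22 windows had a median of 59.3% G and C and 19 CpG pairs, against 52.7% and 7 over all windows. A match describes these letters and is not a binding site.

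The kinases and phosphatase of the stretch were all lower. Taok2 encodes a kinase that acts upstream of the stress-activated MAP kinases and in dendrite growth (chromosome 7, 126865678 to 126884703, minus strand). Its level was 76.8 to 86.7 CPM in deletion libraries, with a median of 84.0, and 158 to 192 CPM in wild-type libraries, with a median of 165. The groups were far apart and the deletion libraries nearly equal, with a log2 fold change of -1.04 ± 0.067 (SE, n = 8 each; edgeR adjusted p = 4.48e-07). Mapk3 encodes ERK1, which relays receptor signals to the nucleus. It was at 75.7 to 125 CPM in deletion (median 100.1) and 135 to 246 CPM in wild type (median 185), again without overlap, with a log2 fold change of -0.92 ± 0.12 (adjusted p = 0.00111). Ppp4c, the catalytic subunit of protein phosphatase 4, had a median of 26.8 CPM in deletion and 44.0 CPM in wild type, and the highest deletion library (32.7 CPM) was just above the lowest wild-type one (31.9 CPM). On the log2 scale the difference was -0.94 ± 0.16 (adjusted p = 0.0199). The call on Ppp4c was lost when any of D801, D802, D803, D810, D811, D812, W807 or W808 was left out, and the value lay between -1.02 and -0.83 over all 16 fits that left out 1 animal.

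Kctd13 and Coro1a, which act on the cytoskeleton, were lower too. Kctd13 encodes an adaptor that brings the small GTPase RhoA to the cullin-3 ubiquitin ligase. It was at 22.3 to 46.7 CPM in deletion (median 42.7) and 55.4 to 118 CPM in wild type (median 78.3). These do not overlap, and the log2 fold change was -1.06 ± 0.17 (adjusted p = 0.0131). Its call was lost without D811. Coro1a, an actin-binding coronin abundant in leukocytes, was at 24.3 to 51.2 CPM in deletion (median 44.1) and 45.1 to 135 CPM in wild type (median 83.8). Here the groups overlapped through W816 at 45.1 CPM. The log2 fold change was -1.09 ± 0.20 with an adjusted p of 0.0391, and the call held in only 2 of 16 fits that left out 1 animal, those without W806 or W816.

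Of the nuclear genes, Maz, Ino80e, Hirip3 and Tbx6 were lower and Kif22 was not called. Maz, a zinc finger transcription factor, was at 66.2 to 105 CPM in deletion (median 90.8) and 130 to 230 CPM in wild type (median 172), and differed by -1.02 ± 0.12 on the log2 scale (edgeR adjusted p = 0.000907). Ino80e, a subunit of the INO80 nucleosome remodeller, had -0.92 ± 0.12, and Hirip3, a histone-binding protein, had -0.93 ± 0.11. Neither overlapped between genotypes. Tbx6, a T-box factor of the paraxial mesoderm, was at most 0.94 CPM in deletion and at least 1.03 CPM in wild type. It was called all the same (log2 fold change -0.98 ± 0.16, adjusted p = 0.0167), although the call was lost when D803, D809, D810, D811, D812 or W808 was left out. Kif22, a chromosome-associated kinesin of dividing cells, had -1.10 ± 0.25 and did not pass the test (adjusted p = 0.308), with groups that overlapped at 2.12 CPM in D801 and 1.61 CPM in W805.

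Of the metabolic genes, Aldoa was by far the most abundant. It encodes the glycolytic enzyme aldolase A and was at 607 to 1161 CPM in deletion (median 876) and 1271 to 2432 CPM in wild type (median 1622), without overlap. The log2 fold change was -0.96 ± 0.16 (adjusted p = 0.0131), and the call was lost without D810, D811, D812, W807 or W808. Per kb of annotated exon, Aldoa had 315 CPM in deletion and 612 CPM in wild type. The next most abundant per kb was Sez6l2, with 50.4 CPM in deletion and 104 CPM in wild type. Cdipt, the phosphatidylinositol synthase, had a median of 68.4 CPM in deletion and 131 CPM in wild type and a log2 fold change of -1.01 ± 0.12 (adjusted p = 0.00052). Fam57b, a ceramide synthase-related membrane protein, had -1.04 ± 0.13. Its gene overlaps Aldoa on the other strand, and whether counting used strand is not given in the sources used here. Qprt, which makes the NAD precursor nicotinate mononucleotide, was below 0.5 CPM in every deletion library and did not pass the test (-1.38 ± 0.35, adjusted p = 0.490).

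Of the neuronal genes of the stretch, Sez6l2 was called lower and Doc2a was not. Sez6l2, a membrane protein of neurons, was at 172 to 268 CPM in deletion (median 212) and 362 to 540 CPM in wild type (median 430). The groups did not overlap, and the log2 fold change was -1.05 ± 0.11 (adjusted p = 0.000147). Doc2a, a calcium sensor of vesicle release, was at 5.61 to 28.9 CPM in deletion (median 16.5) and 21.3 to 60.3 CPM in wild type (median 37.6). It overlapped between genotypes and did not pass the test, at -1.15 ± 0.31 (adjusted p = 0.619). On the scale of a fit of all 48 libraries, Doc2a was at 19.3 to 38.2 CPM in deletion cortex and 32.4 to 84.9 CPM in wild-type cortex. In cerebellum it was at 0.52 to 14.8 CPM in deletion and 0.32 to 12.98 CPM in wild type. Prrt2, a presynaptic protein, had too few counts to be tested, 55 in deletion and 160 in wild type over all libraries. This is a ratio of 0.310 after scaling (95% exact interval 0.224 to 0.424, which covers counting error only). Prrt2 overlaps the annotated Gm42742.

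Of the other genes, those called lower were Tmem219, a receptor for an insulin-like growth factor binding protein (-1.08 ± 0.14, adjusted p = 0.00139), Mvp, the major vault protein (-1.05 ± 0.16, adjusted p = 0.00968), and Asphd1 (-0.97 ± 0.17, adjusted p = 0.0217). The Asphd1 call held without D809, W805, W806, W814 or W816 and was lost without any of the other 11 animals. Ypel3, a yippee-like protein, was abundant, at 48.7 to 122 CPM in deletion (median 84.5) and 96.3 to 233 CPM in wild type (median 131). Its spread in wild type was wide and it did not pass the test (-0.91 ± 0.19, adjusted p = 0.163). AI467606, expressed at 0.85 to 3.15 CPM in deletion and 1.53 to 7.91 CPM in wild type, had -1.28 ± 0.37 (adjusted p = 0.892). Among 4 tested noncoding genes, Gm9967, antisense to Gdpd3, was called (-1.59 ± 0.25, adjusted p = 0.0103), at 0.20 to 0.62 CPM in deletion and 0.60 to 1.53 CPM in wild type. Gm21984, Gm44735 and Gm31749 had -1.35, -0.89 and -1.11 and were not called. The low coding genes Cdiptos (-1.17) and Gm42742 (-1.04) were not called either.

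Gdpd3, a lysophospholipase D, split the animals into high and low ones in both genotypes. In deletion striatum it was at 7.74 CPM in D802 and 8.65 CPM in D810, and at 0.38 to 0.62 CPM in the other 6 animals. In wild-type striatum it was at 11.5 CPM in W807, 10.2 CPM in W808 and 18.2 CPM in W813, and at 0.60 to 1.12 CPM in the other 5. The genotype difference was -1.19 ± 0.94 on the log2 scale and did not pass the test (adjusted p = 1). The same 5 animals were high in their other tissues. Over striatum, cortex and cerebellum they had 7.69 to 27.2 CPM, and the other 11 animals had 0.36 to 2.73 CPM, so no library of 1 kind reached the other. W807, W808 and W813 were also the wild-type animals with the highest median over the stretch. Among deletion animals D802 and D810 had 54.7% and 48.1% of the wild-type mean by that median, and D804, low in Gdpd3, had the highest, 58.6%. The height of these libraries was not particular to the stretch. For nuclear oxidative phosphorylation genes, W807, W808 and W813 had a mean log2 CPM of 7.61 to 7.90. The other 5 wild-type libraries had 6.71 to 7.13. In deletion D804 was highest for that list (7.96) and D812 lowest (6.83). Why these levels go together was not tested.

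**Figure D3:**
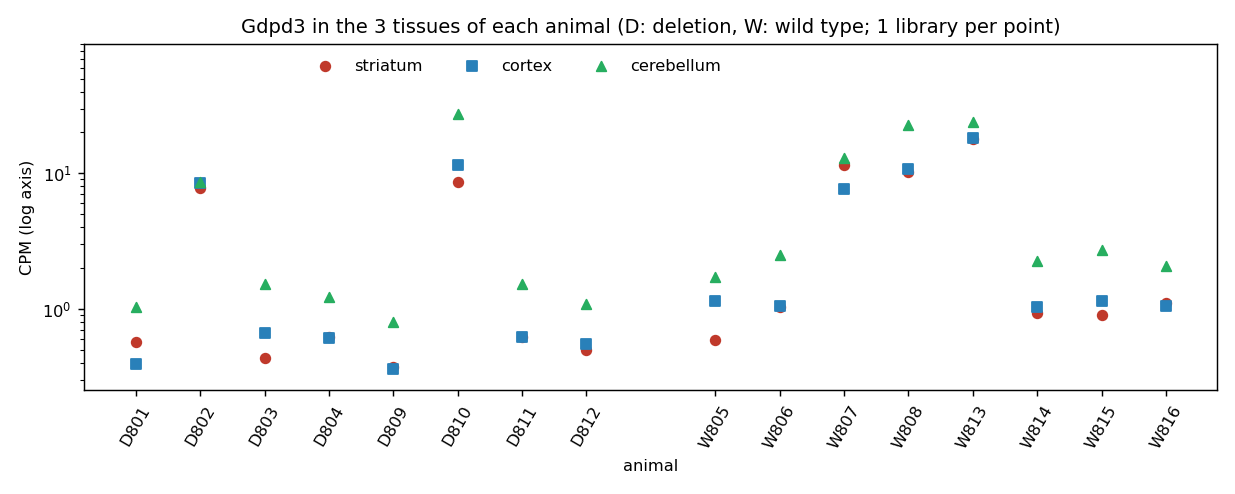
Gdpd3 level (vertical axis, CPM, log scale) in striatum, cortex and cerebellum of each animal (horizontal axis; 8 deletion animals on the left, 8 wild-type animals on the right). D802, D810, W807, W808 and W813 lie between 7.69 and 27.2 CPM in all 3 tissues, and the other 11 animals lie below 2.74 CPM.

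Of the 6 edge genes 3 were called lower, Slx1b on the proximal side and Cd2bp2 and Tbc1d10b on the distal side. At the proximal edge Slx1b, a structure-specific nuclease subunit, was at 8.97 to 12.6 CPM in deletion (median 10.03) and 17.8 to 27.8 CPM in wild type (median 22.7), and differed by -1.07 ± 0.098 on the log2 scale (edgeR adjusted p = 3.2e-05). Bola2, which serves iron-sulphur cluster handling and overlaps Slx1b, had -0.85 ± 0.25 and did not pass the test (adjusted p = 0.892). It was the gene most uneven among wild-type animals of those above 20 CPM, at 18.4 to 59.8 CPM. At the distal edge Cd2bp2, a splicing factor subunit, had 46.5 to 57.5 CPM in deletion and 95.7 to 127 CPM in wild type (-1.07 ± 0.075, adjusted p = 9.67e-07). Tbc1d10b, a Rab GTPase-activating protein, had 37.4 to 51.4 CPM in deletion and 80.9 to 104 CPM in wild type (-1.01 ± 0.073, adjusted p = 1.02e-06). Mylpf, a fast muscle myosin light chain, was low and not called (-1.13 ± 0.31, adjusted p = 0.705). Sept1, a septin next to Mylpf, was at 1.69 to 3.91 CPM in deletion (median 3.13) and 2.04 to 4.47 CPM in wild type (median 3.28), so the groups lay over each other. Its log2 fold change was -0.09 ± 0.18, with an interval of -0.48 to 0.29 that does not reach -1.

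**Figure D4:**
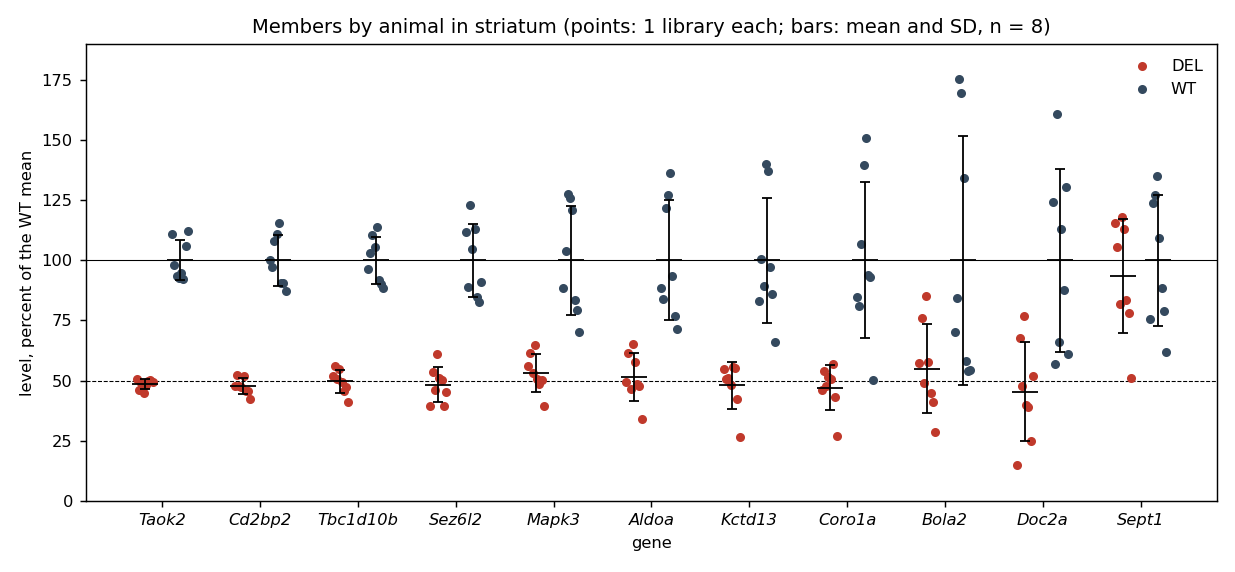
Level of 11 genes of the stretch in each striatal library, as a percentage of the wild-type mean (vertical axis), with deletion to the left of wild type for each gene. Points are libraries, and bars give mean and SD (n = 8). Taok2, Cd2bp2 and Tbc1d10b are tight and separate, Bola2 and Doc2a overlap, and Sept1 lies at 93.4% of wild type on average.

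Not every gene of the stretch could be measured. Of the 21 not tested, 12 had 0 counts in all 16 libraries, which allows up to 3 counts each, and these include Pagr1a and its annotated neighbour copy Pagr1b. The other untested genes, those with any count, had at most 3 counts in a genotype, apart from Prrt2, Gm44854, with 2 in deletion and 5 in wild type, Spn and 4930451I11Rik. Spn, the leukocyte sialophorin CD43, had 21 counts in deletion and 63 in wild type, a ratio of 0.301 (95% exact interval 0.174 to 0.5). The predicted gene 4930451I11Rik had 10 counts in deletion and 25 in wild type, a ratio of 0.361 (0.155 to 0.779).

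Of the 84 genes tested within 2 Mb on either side, 0 were called by edgeR, 3 were lower and 1 higher at an unadjusted p under 0.05, and the median log2 fold change was -0.04. The smallest p-values were those of Inpp5f, a phosphoinositide phosphatase (0.43 ± 0.14), Ctf1, the cytokine cardiotrophin (-0.44 ± 0.17), and Sgf29, a SAGA complex subunit (-0.36 ± 0.15). All had an adjusted p of 1. The 84 include Gm6939, which overlaps Slx1b, and Zfp553, which overlaps Sept1 (0.07 ± 0.07). Gm6939 had the lowest value of the 84 (-1.21 ± 0.59), at a mean of 0.21 CPM in deletion and 0.50 CPM in wild type. Over the 32 flanking genes of at least 20 CPM in wild type, the median level per library was 93.2 to 107% of the wild-type mean in deletion and 91.2 to 103% in wild type. W807, W808 and W813 had 99.9 to 103% by this measure.

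The median log2 fold change over its tested genes was -1.02 in males and -1.05 in females (4 deletion and 4 wild-type animals each). A test of the difference by sex called 0 of 17198 genes (0%) by edgeR and 0 by DESeq2. At an unadjusted p under 0.05, edgeR gave 106 positive and 83 negative differences (DESeq2 148 and 100), and 0 of the 34 genes of the stretch. In a fit of all 48 libraries, the median over the same genes was -1.07 in cortex and -1.03 in cerebellum. The genotype difference in striatum minus that in cortex passed the edgeR test for 0 of 18531 genes (0%), and likewise 0 of 18531 against cerebellum (0%). At an unadjusted p under 0.05 there were 153 positive and 183 negative differences against cortex, and 95 positive and 174 negative ones against cerebellum. With the animal as a block these numbers were 867 and 516 against cortex and 189 and 290 against cerebellum, with 0 called in either and a smallest edgeR adjusted p of 0.0501 against cortex and 0.478 against cerebellum. Within the stretch, 1 gene had such a p against cortex, Gm42742 (difference 0.87 ± 0.41), and 0 against cerebellum. With the block it was 2 genes against cortex and 1 against cerebellum. For Taok2 the striatum minus cortex difference was -0.08 ± 0.08, and for Mapk3 it was -0.15 ± 0.25.

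Outside the stretch, 2 genes rose in deletion striatum, and the test called 0 lower. Among all genes tested, 0.0116% were called higher. At an unadjusted p under 0.05, 263 of 17164 genes outside were higher and 277 lower. DESeq2 called 10 higher and 8 lower, and limma voom called 4 higher and 3 lower.

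Fos, the immediate early transcription factor that neurons switch on with activity, was called higher (chromosome 12, 85473890 to 85477273, GRCm38). It was at 19.6 to 42.9 CPM in deletion (median 34.3) and 10.6 to 20.3 CPM in wild type (median 16.4). D809, at 19.6 CPM, was the deletion library that lay within the wild-type range, and 8 of 8 deletion libraries were above the wild-type mean. The log2 fold change was 1.04 ± 0.16 (SE, n = 8 each; edgeR adjusted p = 0.0120). The value was 1.12 in males and 0.95 in females. The call was lost with marker levels as covariates (0.99, edgeR adjusted p = 0.439). Without the 5 libraries of thalamic above striatal markers it was lost too (0.94, edgeR adjusted p = 0.626). It was lost without D810, W813 and W816 together (0.96, edgeR adjusted p = 0.127). In the fit of all 48 libraries it was lost as well (1.05, edgeR adjusted p = 0.481). The call held in each of the 16 fits that left out 1 animal. In the fit of all libraries the Fos difference was 0.68 ± 0.33 in cortex and 0.91 ± 0.34 in cerebellum, and neither passed the test.

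Other immediate early genes did not pass the test. Of 30 tested, 22 had positive values, with a median log2 fold change of 0.25 against -0.01 over all genes, and Fos was the called one. The median was 0.49 in males and -0.06 in females, so its direction turned, and the difference between the sexes was not tested for the list. Btg2, an antiproliferative early gene, had 0.37 ± 0.16 (adjusted p = 1). Egr1, the early growth response factor, was at 76.8 to 391 CPM in deletion (median 131) and 31.1 to 211 CPM in wild type (median 119), with 0.27 ± 0.38. D801, the animal with the highest Ppp1r1b, also had the highest Egr1, Arc, Fosb, Junb and Npas4. In bulk tissue, fewer cells of a type and less RNA per cell cannot be told apart.

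Tyr encodes tyrosinase, which starts pigment synthesis in melanocytes, and was called higher (chromosome 7, 87424771 to 87493512, GRCm38, outside the flanks described). It was at 8.54 to 16.1 CPM in deletion (median 11.7) and 0 to 0.21 CPM in wild type (median 0.088). This was the single gene of all tested whose deletion libraries all lay above the wild-type ones (0.00581%). Summed over libraries it had 3426 counts in deletion and 23 in wild type, a ratio of 134 (95% exact interval 89.5 to 212, counting error only), and the edgeR adjusted p was 1.35e-08. It was called in every alternative, and in the other tissues it was at 11.8 ± 0.85 CPM in deletion and 0.086 ± 0.15 CPM in wild-type cortex, and at 14.6 ± 3.49 CPM in deletion and 0.0077 ± 0.014 CPM in wild-type cerebellum (SD, n = 8).

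The agouti gene a, which encodes a coat colour signal of the hair follicle (chromosome 2), also had more counts in deletion, 292 against 33 in wild type, a ratio of 7.99 (95% exact interval 5.56 to 11.8). It did not pass the edgeR test in striatum (3.06 ± 0.73, adjusted p = 0.370), where the deletion libraries had 16 to 57 counts, and of the wild-type ones W807 had 17, W813 had 12 and the other 6 had at most 2. DESeq2, limma voom and the fit of all 48 libraries called it. Coat colour genes such as Tyr and agouti are used as visible markers in vectors for engineering mouse chromosomes. Whether these reads come from the chromosomal genes was not tested.

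The promoter windows of the 2 called genes are shown for comparison with those of the stretch, with the same source, orientation and capitals.
Fos, chr12:85473640-85473939, plus strand: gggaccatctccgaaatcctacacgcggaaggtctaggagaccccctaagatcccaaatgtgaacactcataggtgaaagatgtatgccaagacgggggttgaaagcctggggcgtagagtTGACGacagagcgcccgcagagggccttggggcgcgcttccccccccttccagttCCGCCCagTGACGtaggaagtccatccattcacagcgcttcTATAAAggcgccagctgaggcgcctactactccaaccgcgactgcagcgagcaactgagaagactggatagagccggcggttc
Tyr, chr7:87493463-87493762, minus strand: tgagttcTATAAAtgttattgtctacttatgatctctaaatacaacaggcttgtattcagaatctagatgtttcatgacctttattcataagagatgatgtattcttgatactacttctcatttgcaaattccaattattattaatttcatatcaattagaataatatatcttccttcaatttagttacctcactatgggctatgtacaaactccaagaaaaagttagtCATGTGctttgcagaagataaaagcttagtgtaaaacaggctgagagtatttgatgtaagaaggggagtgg
Fos held 2 half-sites, 1 GC box and 1 TATA box, with 58.7% G and C. Tyr held 1 M-box, the motif bound by the melanocyte factor MITF, and 1 TATA box, with 31.0% G and C and no CpG pair.

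**Figure D5:**
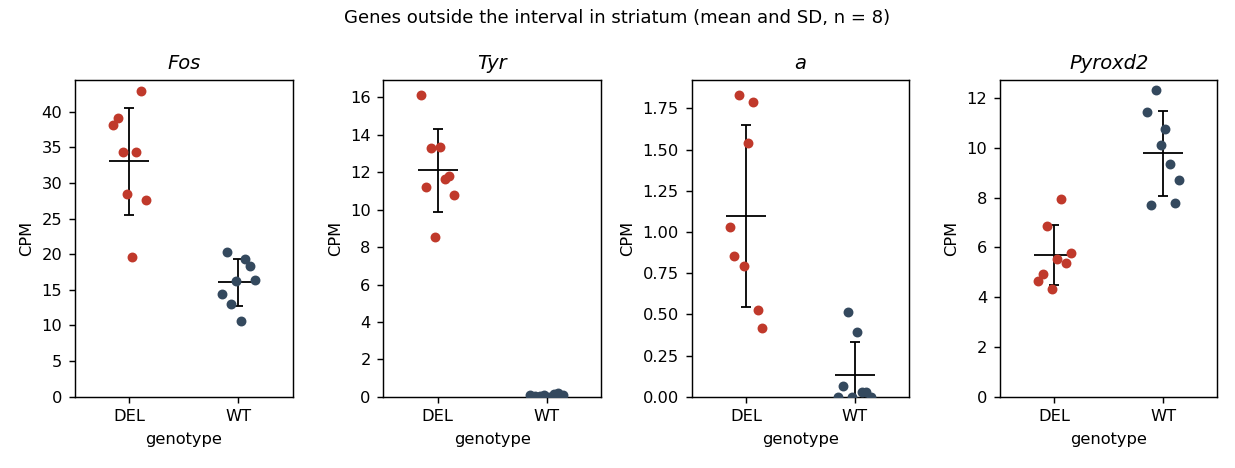
Levels (vertical axis, CPM) of Fos, Tyr, the agouti gene a and Pyroxd2 in the 8 deletion and 8 wild-type striatal libraries (points), with mean and SD. Fos overlaps by 1 deletion library at 19.6 CPM, Tyr is separate, and a and Pyroxd2 each overlap between genotypes and did not pass the edgeR test.

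Of the genes that did not pass the test, Pyroxd2, a mitochondrial oxidoreductase, came closest among those lower. It was at 4.34 to 7.96 CPM in deletion (median 5.45) and 7.70 to 12.3 CPM in wild type (median 9.75), with -0.79 ± 0.15 (edgeR adjusted p = 0.0555). It was called by DESeq2, without D810, without sex in the design and in the fit of all libraries. Xdh, xanthine dehydrogenase of purine breakdown, had -0.79 ± 0.18 (adjusted p = 0.308). Serinc2 (-1.38), Slc13a4, a sulphate transporter of meninges and choroid plexus (-1.79), Zbtb16, a zinc finger repressor (-1.56), Hkdc1, a hexokinase-like protein (-1.81), and Svep1 (-0.82) were highest in W813, W815 or W816, which had high choroid, meningeal or cortical markers. Slc13a4 was highest in W816, at 40.9 CPM, Serinc2 in W813, at 13.4 CPM, and Hkdc1 in W815, at 24.4 CPM. The others among the 10 of smallest p were Xlr4b (-2.22), Gm9157 (-0.73) and an unnamed Ensembl gene (-1.05). Among those higher were Apln, a peptide ligand of the vasculature (0.49 ± 0.12), Nfkbia, an inhibitor of NF-kappa-B (0.41 ± 0.10), Tcim (0.80 ± 0.20), Gm17066 (0.90 ± 0.23), Mir703 (1.42 ± 0.35) and the mitochondrial transfer RNA genes mt-Ta (0.89 ± 0.21) and mt-Ti (1.76 ± 0.44), with edgeR adjusted p from 0.344 to 0.480.

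Genes of striatal neurons had positive values without passing the test. Of 26 shared medium spiny neuron genes, 25 were positive and 0 were called, with a median log2 fold change of 0.38, against -0.01 over all genes. Among all genes tested, 48.2% were positive. The genes of a list are measured in the same libraries. The number positive in this or any other list is therefore not a count of independent results. Tac1, the substance P precursor of the direct pathway, had 143 ± 78.7 CPM in deletion and 90.6 ± 55.1 CPM in wild type (0.70 ± 0.41). Penk, the enkephalin precursor of the indirect pathway, had 698 ± 625 CPM in deletion and 482 ± 436 CPM in wild type (0.58 ± 0.55). Direct pathway genes had a median of 0.21 and indirect pathway genes of 0.29. The 24 genes of dopamine and cyclic AMP signalling had a median of 0.23. Those of smallest p were Ppp2r5d, a phosphatase subunit (0.12 ± 0.10), and Prkar2b, a regulatory subunit of protein kinase A (0.26 ± 0.23). The direct, indirect and dopamine lists share genes with the medium spiny neuron list, among them Drd1 and Drd2. Their medians are therefore not independent. Cholinergic interneuron genes were positive in 9 of 9 (median 0.57), led by Slc18a3, the vesicular acetylcholine transporter (0.84 ± 0.44), and W813 stood far below the rest with Chat at 0.23 CPM. The spread of these genes across libraries was wide. Without the 5 libraries of thalamic above striatal markers, the medium spiny neuron median was 0.19. The indirect pathway median was then 0.07 and the dopamine and cyclic AMP median 0.11. Those libraries were chosen partly on genes of these lists, so the medians without them are not independent of the choice. Without W813 and W816 the indirect pathway median was 0.09. With marker covariates the cholinergic median was 0.08.

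Markers of neighbouring tissue had mostly negative values. Cortical pyramidal genes were negative in 13 of 14, with a median of -0.68, and Fezf2, a deep-layer factor, had -1.08 ± 0.46. Choroid plexus and ependymal genes were negative in 17 of 17 (median -0.55), and meningeal genes in 12 of 12 (median -0.69). Without W813 and W816 these medians were -0.25 and -0.42. Both libraries were left out by their choroid plexus list, so the choroid median without them is not independent of that choice. With marker covariates the cortical median was 0.08, so its direction turned, the choroid one was -0.01 and the meningeal one was -0.36. The cortical and choroid lists are themselves covariates, so that fit cannot show whether their own shifts hold. Without the 5 libraries of thalamic above striatal markers the choroid median was -1.19. The cortical median was -0.24 in males and -1.58 in females. Thalamic genes were positive in 12 of 14 (median 0.20), with Cplx1, complexin of fast synapses, at 676 ± 157 CPM in deletion and 524 ± 82.9 CPM in wild type. Without the 5 libraries of thalamic above striatal markers the thalamic median was -0.33, so its direction turned. Those libraries were chosen partly on genes of this list, so that value is not independent of the choice. The direction also turned without W813 and W816 (-0.07) and in males (-0.08). Hippocampal genes (9 tested, median -0.28) and other striatal interneuron genes (12 tested, median -0.08) had 0 called. The hippocampal median was -0.01 without W813 and W816, 0.07 in males and 0.26 with marker covariates, and the interneuron median was 0.13 without the 5 libraries and 0.12 without W813 and W816, so the direction of both turned.

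Astrocyte genes had a median of 0.09, oligodendrocyte genes of -0.04, their precursors of 0.10, and endothelial and mural genes of 0.06, with 0 called in each. The oligodendrocyte median was 0.01 with marker covariates and in females, so its direction turned. Microglial genes were positive in 18 of 20 (median 0.18), with a median of 0.35 in males and 0.01 in females. Ctss, a lysosomal protease, had 61.1 ± 9.88 CPM in deletion and 48.4 ± 10.2 CPM in wild type (0.33 ± 0.12, edgeR adjusted p = 1). Blood genes were positive in 5 of 6 (median 1.14), and the median was 0.65 without D804, the library of highest haemoglobin message. Hbb-bs was at 8.77 to 188 CPM in deletion (median 34.4) and 11.1 to 40.3 CPM in wild type (median 19.3).

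Signalling partners of the deleted genes did not change past the threshold. Of 38 genes of the ERK cascade, 17 were positive, 21 negative and 0 called, with a median of -0.02. Ksr1, a scaffold of the cascade, had -0.36 ± 0.19, and Elk1, a transcription factor that ERK phosphorylates, had -0.27 ± 0.17. Of 69 partners and paralogues of the deleted proteins, 28 were positive, 41 negative and 0 called, also with a median of -0.02. Among them Sez6l, a relative of Sez6l2, had -0.31 ± 0.18, and Aldoc, the brain aldolase, was at 1078 ± 200 CPM in deletion and 952 ± 233 CPM in wild type (0.19 ± 0.13).

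Energy and stress genes had mostly positive values, with 0 called. Mitochondrially encoded messages were positive in 12 of 12 (median 0.29), with mt-Nd6, a complex I subunit, at 31.4 ± 17.8 CPM in deletion and 18.6 ± 6.26 CPM in wild type (0.66 ± 0.27). Nuclear genes of oxidative phosphorylation were positive in 46 of 46, with a median of 0.12, and Sdhd, a complex II subunit, had 0.19 ± 0.10. Chaperones had a median of 0.17, and Dnaja1, an Hsp70 co-chaperone, was at 206 ± 19.9 CPM in deletion and 174 ± 12.7 CPM in wild type (0.24 ± 0.08, edgeR adjusted p = 1). Genes of cholesterol synthesis and uptake had a median of 0.18, and Msmo1, a sterol oxidase, had 0.22 ± 0.09. Of 14 tested melanin and coat colour genes, Tyr was called and the median was 0.03.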

How the data were processed

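RNA was sequenced after TruSeq stranded mRNA preparation, per the labels' protocols. The submitters' processing notes name STAR 2.4.2a, FastQC 0.10.1, Picard and SAMtools, and the builds GRCm38 and mm8 without their roles. Neither the counting tool nor its strand setting is named in the sources used here. The authors deposited 1 table of raw counts per gene, with 47161 features, of which 92 spike-in rows were left out. Of 47069 genes, 46488 were matched to GENCODE M21 (GRCm38), and the 581 others held 0.103% of striatal counts.

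The 16 striatal libraries were fitted with edgeR 4.0.16 in R 4.3.3 (quasi-likelihood, robust, TMM scaling, filterByExpr by genotype, sex and genotype as terms). Benjamini-Hochberg adjustment ran over all 17198 genes tested, with calls at an adjusted p under 0.05. Intervals are at 95%, and those of count ratios cover counting error only. Differences between tissues came from a fit of all 48 libraries, and CPM set across tissues are on that fit's scale. The fitting script was tested on simulated counts first. Library measures were compared by exact permutation.

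Animal numbers in the labels pair the tissues. The deviations of same-animal libraries from their group means had a median correlation of 0.376 between striatum and cortex and 0.306 between striatum and cerebellum, against -0.133 and -0.103 for other animals.

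The genes, gene lists and tests were chosen with earlier results of these data known. Named genes were those of the stretch, every called gene outside it, the 10 of smallest p each way, 3 flanking genes, and for each list the called members or those of smallest p or highest level. Marker genes used to describe library content were named as well. Alternatives were DESeq2 1.42.0, limma 3.58.1 voom, other scaling, no filter, no sex term, marker covariates, each sex alone, libraries left out and the fit of all libraries. Leaving out the 5 libraries of thalamic above striatal markers, and the thalamic and choroid libraries together, was chosen after seeing the data.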

Additional observations from a re-analysis of the deposited data

Results flagged for a closer look

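Of 116 groups of 8 values examined, 12 had an end value set far apart from the next. The gap was a larger part of the range than Dixon's 95% limit for 8 values allows. Chance gives about 1 in 20 for independent, normal values. These groups share libraries and the genes outside were chosen by small p, so the 12 cannot be read as an excess. No cause was tested. Among genes of the stretch, Coro1a was lowest in D812 at 24.3 CPM, with the next deletion library at 38.6 CPM. Kctd13 was also lowest in D812, at 22.3 CPM, with the next at 35.5 CPM. Fam57b was highest among wild-type libraries in W813, at 84.4 CPM against 63.4 CPM in the next. Qprt was highest in W807, at 1.03 CPM against 0.626 CPM.

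Outside the stretch, each high value was in a wild-type library. Serinc2 stood at 13.4 CPM in W813, with 4.81 CPM in the next. Slc13a4 stood at 40.9 CPM in W816, with 13.4 CPM in the next. Xlr4b stood at 1.67 CPM in W808, with 0.606 CPM in the next. Hkdc1 stood at 24.4 CPM in W815, with 11.6 CPM in the next.

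D812 also had the highest total among deletion libraries, 60751800 counts rounded, against 36021500 in the next, and the most genes detected, 25542 against 24185. The spike-in share was highest in D810, at 1.09% against 0.480%, and the mitochondrial share in D811, at 6.19% against 4.53%.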

How the results depend on the processing

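The median log2 fold change of the stretch between its edges lay between -1.07 and -0.91 over 13 alternatives and between -1.07 and -0.95 when 1 animal was left out. The number of these genes called lower, 17, was 1 with marker covariates and 11 without the thalamic and choroid libraries. It was 7 without the 5 libraries of thalamic above striatal markers, 1 in males alone and 0 in females alone. When 1 animal was left out it was 11 to 17, with 11 without D811. The 3 edge genes stayed at 3 when 1 animal was left out and were 0 in females alone. Sets with fewer libraries have fewer samples to test.

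Outside, the 2 higher calls became 10 with DESeq2, 4 with limma voom, 4 with all 48 libraries, and 1 with marker covariates, without the thalamic and choroid libraries, without the 5 libraries, in males alone and in females alone, and were 2 to 3 when 1 animal was left out. The 0 lower calls became 8 with DESeq2, 3 with limma voom, 3 with all 48 libraries, 1 without the sex term and 1 without D810, and were 0 to 1 when 1 animal was left out. The ERK cascade, partner and melanin list medians had either sign across fits, the ERK one from -0.08 in females to 0.05 in males. The cholesterol median was 0.07 with marker covariates. Gdpd3 turned positive with limma voom (0.14) and with marker covariates (0.27), and the cause was not tested. With the animal as a replicate block, the paired tests of striatum against cortex and against cerebellum called 0 genes each, as without it, while the differences at an unadjusted p under 0.05 against cortex were 867 positive and 516 negative with the block and 153 and 183 without it. Counting depth limits the genes of lowest CPM.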
